A study of Mus musculus with 4 samples.

Results

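The genes examined here are 10 regulators of mitochondrial biogenesis, the process by which a cell makes more mitochondria: Ppargc1a, Ppargc1b, Esrra, Nrf1, Gabpa, Tfam, Tfb1m, Tfb2m, Polg and Polrmt. They were taken by name from 53647 genes counted in 4 mouse libraries, and all 10 were found by their symbol. The libraries came from wild-type primary myotubes, which are multinucleated muscle cells formed in culture from myoblasts of newborn limb muscle. In 2 of them the myotubes had received recombinant EDA-A2, the ligand of the EDA2R receptor of the tumour necrosis factor receptor family, at 250 ng/mL for 24 h, and the other 2 were labelled as controls, with no vehicle named. Cells were collected 72 h after differentiation began, polyadenylated RNA was sequenced, and read pairs were counted per gene. The study's methods speak of biological replicates for its sample sizes in general. The sources used here do not say whether the 2 libraries of a condition came from separate cultures. The p-values therefore rest on the spread between these libraries, shared in part over all genes tested, and that spread may be technical.

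Most mitochondrial proteins are encoded in the nucleus, and the coactivators PGC-1α (Ppargc1a) and PGC-1β (Ppargc1b) raise their transcription by binding to factors such as the orphan receptor ERRα (Esrra), the nuclear respiratory factor NRF1 (Nrf1) and GABP, whose DNA-binding subunit is Gabpa. These factors in turn act on the genes for the machinery of mitochondrial DNA (mtDNA): the packaging and transcription factor Tfam, the methyltransferase relatives Tfb1m and Tfb2m, the RNA polymerase Polrmt and the DNA polymerase Polg. In skeletal muscle this pathway is known for its response to endurance training and for its part in oxidative fibres. Nrf1 here is nuclear respiratory factor 1 and not the stress factor Nfe2l1, which shares the abbreviation.

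Of the 10 regulators, Tfam rose after EDA-A2 and the other 9 were not called in either direction. Tfam was 1.32-fold higher in treated myotubes. The remaining log2 fold changes lay between -0.23 and 0.08, and their 95% intervals stayed within 0.713-fold and 1.21-fold of the control level. Genes were called at an adjusted p under 0.05 in edgeR's quasi-likelihood test fitted on all 15173 genes that passed a filter on low counts, and all 10 regulators passed that filter, with 345 to 3504 counts in each library. Across all genes tested, 2.45% were called higher and 2.13% lower (371 and 323 genes, or 485 and 194 under total counts), and 1 of 10 genes is a count too small to be read against these shares. DESeq2 called Tfam and no other of the 10. At an unadjusted p under 0.05 in edgeR the count was also 1 of the 10, against 2372 of all 15173 genes tested. That unadjusted count was 2 when a replicate block added Ppargc1b (log2 fold change -0.23) and 3 without control replicate 1, where Ppargc1a (-0.32) and Ppargc1b (-0.34) joined Tfam. The median log2 fold change was -0.08 over the 10 genes and -0.00 over all genes tested, and 8 of the 10 had a negative value.

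The 4 libraries held 29444155 to 29746863 counts on genes. As a check of the treatment, the NFκB subunit gene Nfkb2 rose from 1008 and 1005 normalized counts (counts scaled to a common library size by the TMM method) in control myotubes to 3660 and 3808 with EDA-A2. The receptor gene Eda2r rose from 7024 and 7685 to 8732 and 9951. All 8 markers of differentiated myotubes were detected, and their summed level was 23761 and 23015 CPM (counts scaled to a common library total) in control libraries and 17758 and 17771 CPM with EDA-A2, with 4 of the 8 called lower. Myoblast markers summed to 291.9 and 254.8 CPM against 246.5 and 231.5 CPM, with Cdh15 called lower. For dividing cells the sums were 636 and 772 CPM against 746 and 725 CPM, and none of the 4 markers was called. Of the 6 fibroblast markers, Lum and Thy1 had 0 counts in every library. The other 4 held 38820 to 45682 counts (Col3a1), 4769 to 9004 (Col1a1), 240 to 308 (Pdgfra) and 73 to 138 (Dcn). None of these 4 was called, with log2 fold changes from -0.455 (Col1a1) to 0.480 (Dcn). The list summed to 1628 and 1725 CPM against 1639 and 1642 CPM. Endothelial markers summed to at most 1.26 CPM and macrophage markers to at most 3.09 CPM. Of the latter, Cd68 held 54 to 81 counts, while Ptprc, Adgre1 and Lyz2 had no more than 3 in any library. In bulk RNA, fewer cells of a type and less RNA per cell cannot be told apart, and the part of these shifts in the values below was not tested.

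Tfam (ENSMUSG00000003923, chromosome 10 from 71061287 to 71074110 of GRCm39) encodes the high-mobility-group protein that coats mtDNA and bends its promoters to start transcription. Its normalized counts were 1379 and 1413 in the control libraries and 1809 and 1887 with EDA-A2. Both treated libraries lay above both controls, and the gap between conditions was far wider than the distance between replicates. The mean went from 1396 ± 24.2 to 1848 ± 54.8 (SD, n = 2 libraries), a log2 fold change of 0.41 with a standard error of 0.07 and a 95% interval of 0.25 to 0.56 (adjusted p = 0.00412, edgeR quasi-likelihood with Benjamini-Hochberg correction). DESeq2's Wald test gave an adjusted p of 0.00168. The size was steady, between 0.37 and 0.46 over 13 alternative settings, but the call was not. With every gene of at least 1 count kept, the adjusted p was 0.0978 in edgeR. With control replicate 1 left out it was 0.288, and with the second control left out 0.190. With EDA-A2 replicate 1 left out it stayed under the threshold at 0.0141, and with EDA-A2 replicate 2 left out it was 0.0772. In the fits that lacked a control library, 0 of all genes tested were called by edgeR in either direction, with 2179 and 2449 at an unadjusted p under 0.05; DESeq2 was not run on 3 libraries. A change of this size was not rare in these libraries, where 991 genes tested had a log2 fold change at least as high. No other gene of the annotation overlaps Tfam.

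**Figure D1:**
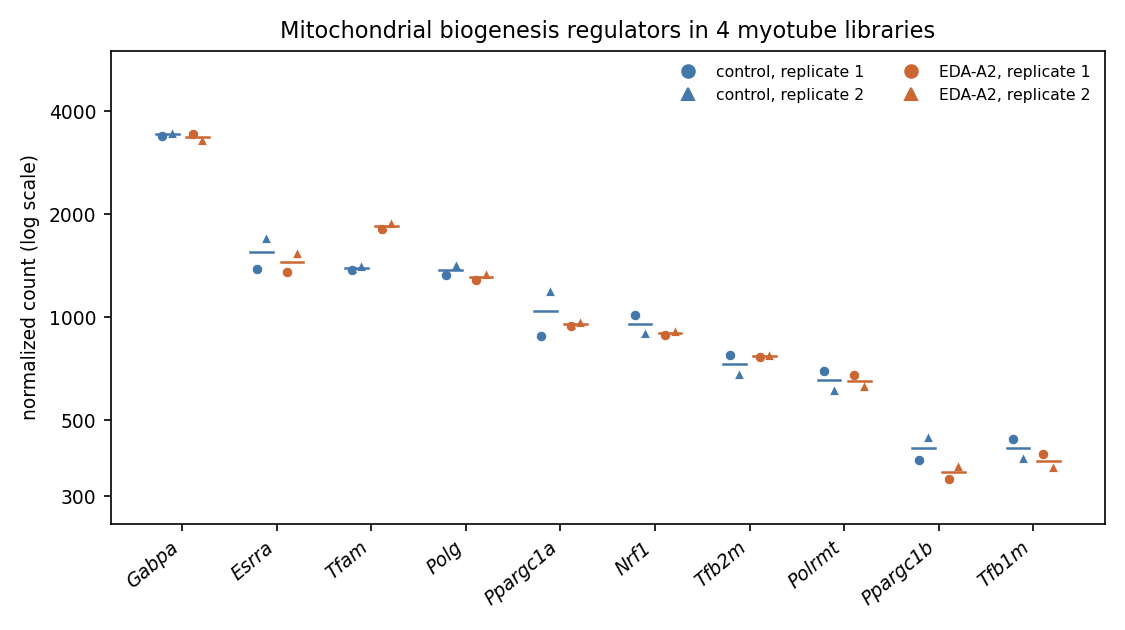
Normalized counts (log scale) of the 10 regulators in each of the 4 libraries, ordered by control mean, with control libraries in blue, EDA-A2 libraries in orange, circles for replicate 1, triangles for replicate 2 and a bar at the mean of each condition. Tfam, at 1379 and 1413 in control and 1809 and 1887 with EDA-A2, is the gene whose conditions stand clearly apart, while for most others the points of both conditions interleave.

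The proximal promoters of Tfam and of 3 other genes of the mtDNA machinery are shown because they carry the core letters of NRF1 or GABP sites, the factors through which this pathway is known to reach them, while only Tfam was called. Each runs from 250 bases before to 50 bases after the RefSeq transcription start (table build GRCm38.p6), 5′ to 3′ on the gene's strand, and its position is that of the single exact match in GRCm39. Capitals mark the motif letters. The stretch of Tfb2m lies wholly inside the gene as annotated in GENCODE, which reaches to 179374548 on the minus strand. The same holds for the stretch of Gabpa and for a stretch of Nrf1, both searched below. For these stretches the RefSeq start is therefore downstream of the gene's outermost GENCODE start. That is also so for Tfam, whose gene reaches to 71074110, so most of its stretch, with the marked letters, lies inside the gene. It is also so for Polg, Esrra, Tfb1m and the other stretch of Nrf1, which lie inside their genes only in part.
Tfam, chr10:71073825-71074124, minus strand: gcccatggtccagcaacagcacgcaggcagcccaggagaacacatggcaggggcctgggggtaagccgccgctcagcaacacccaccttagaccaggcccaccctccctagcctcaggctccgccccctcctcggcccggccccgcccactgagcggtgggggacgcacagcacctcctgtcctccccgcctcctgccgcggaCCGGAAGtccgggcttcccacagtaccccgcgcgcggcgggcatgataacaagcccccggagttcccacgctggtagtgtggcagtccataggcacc
Tfb2m, chr1:179373792-179374091, minus strand: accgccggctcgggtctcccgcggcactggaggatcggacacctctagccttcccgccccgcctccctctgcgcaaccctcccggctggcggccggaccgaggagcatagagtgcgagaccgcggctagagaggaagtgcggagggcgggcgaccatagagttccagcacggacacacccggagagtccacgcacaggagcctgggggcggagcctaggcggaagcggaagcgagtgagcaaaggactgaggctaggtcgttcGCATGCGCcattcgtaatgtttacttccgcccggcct
Polg, chr7:79115972-79116271, minus strand: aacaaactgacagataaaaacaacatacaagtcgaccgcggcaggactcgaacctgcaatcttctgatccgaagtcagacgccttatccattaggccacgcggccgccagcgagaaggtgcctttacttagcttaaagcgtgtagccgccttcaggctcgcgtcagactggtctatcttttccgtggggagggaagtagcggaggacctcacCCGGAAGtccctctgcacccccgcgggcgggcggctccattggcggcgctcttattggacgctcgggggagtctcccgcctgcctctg
Polrmt, chr10:79582366-79582665, minus strand: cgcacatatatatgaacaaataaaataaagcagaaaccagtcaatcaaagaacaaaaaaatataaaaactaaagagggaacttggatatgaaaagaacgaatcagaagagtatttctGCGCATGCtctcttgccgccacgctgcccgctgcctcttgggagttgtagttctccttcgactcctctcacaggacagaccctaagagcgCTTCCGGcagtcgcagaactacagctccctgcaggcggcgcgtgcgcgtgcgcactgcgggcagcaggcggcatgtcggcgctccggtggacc

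The RefSeq table held a promoter for 9 of the 10 genes, Ppargc1b being the other. Nrf1 had 2 promoters there and was counted as 1 gene, while the shares given below are of promoters, whatever their base composition. Whether the 9 genes differ from those shares was not tested. The letters CCGGAAG, used here as the core bound by GABP and other ETS factors, were searched on both strands. They stood in the promoters of 4 of the 9 genes (Tfam, Polg, Polrmt and Gabpa itself), against 8.86% of all 32851 promoters of this length. Only exact matches were counted for each motif. Shorter or variant letters, such as the ggaag in the Tfb2m promoter above, were not. The NRF1 core GCGCATGC stood in 3 (Esrra, Tfb2m and Polrmt), against 2.71% of all promoters. The ERR element TCAAGGTCA was in none of the 9 and in 0.423% of all, and the YY1 core AAGATGGCG was in 1 (Gabpa) and in 1.40% of all. The YY1 letters begin with the letters that end the GABP core, so matches of these 2 motifs can overlap, and a match is a description of letters and not of a bound site. Polg and Polrmt, which share the GABP letters with Tfam, were not called.

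The coactivator genes did not pass the test. Ppargc1a (ENSMUSG00000029167, chromosome 5 from 51611592 to 51725068) had 884 and 1196 normalized counts in control and 942 and 967 with EDA-A2. The treated libraries lay between the controls, which differed from each other more than either differed from a treated library. Its log2 fold change was -0.12 (interval -0.37 to 0.12, adjusted p = 0.697, edgeR quasi-likelihood), and it was -0.32 with the first control left out and 0.11 with the second left out. Gene-level counts cannot separate the transcript variants of Ppargc1a, which start from different promoters.

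Ppargc1b (ENSMUSG00000033871, chromosome 18 from 61431195 to 61533735) had the lowest value of the 10. Its normalized counts were 382.2 and 448.7 in control and 338.2 and 368.5 with EDA-A2, so the treated libraries lay just under the controls without overlap. The log2 fold change was -0.23 with an interval of -0.49 to 0.02, and the adjusted p was 0.378 in edgeR. It was -0.34 without control replicate 1 and -0.11 without control replicate 2. Of the 10 genes, 1 lay above the controls without overlap (Tfam) and 1 below (Ppargc1b), against 22.8% and 22.2% of all genes tested. The 95% interval of Ppargc1b reached from 0.713-fold to 1.01-fold.

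For the transcription factors the conditions overlapped. Esrra (ENSMUSG00000024955, chromosome 19 from 6888338 to 6899336), the orphan receptor through which PGC-1α acts on oxidative genes, had 1385 and 1710 normalized counts in control and 1353 and 1544 with EDA-A2. The replicates of each condition were farther apart than the means, and the log2 fold change was -0.10 (interval -0.31 to 0.12, adjusted p = 0.736 in edgeR), or 0.07 without control replicate 2. Nrf1 (ENSMUSG00000058440, chromosome 6 from 30047892 to 30153462) had 1015 and 900.5 in control and 891 and 915 with EDA-A2, a log2 fold change of -0.09 (interval -0.27 to 0.10, adjusted p = 0.737 in edgeR) that became 0.01 without control replicate 1.

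Gabpa (ENSMUSG00000008976, chromosome 16 from 84631140 to 84660672) was the most counted of the regulators and among the most even. Its 4 libraries held 3391, 3445, 3435 and 3304 normalized counts (control, then EDA-A2), and its log2 fold change was -0.02 (interval -0.16 to 0.12), or 0.03 when libraries were scaled to total counts. The adjusted p was 0.934 in edgeR. In the annotation used here 500 exonic bases of Gabpa lie opposite Atp5pf, a subunit gene of ATP synthase on the other strand, and 1479 exonic bases of Esrra lie opposite Trmt112. The stretches opposite another gene are 665 bases for Polg, 279 for Tfb2m, 212 for Ppargc1b and 87 for Nrf1. The study's methods name a stranded library kit. The strand option of the counting is not given in the sources used here, so pairs in such stretches are uncertain.

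**Figure D2:**
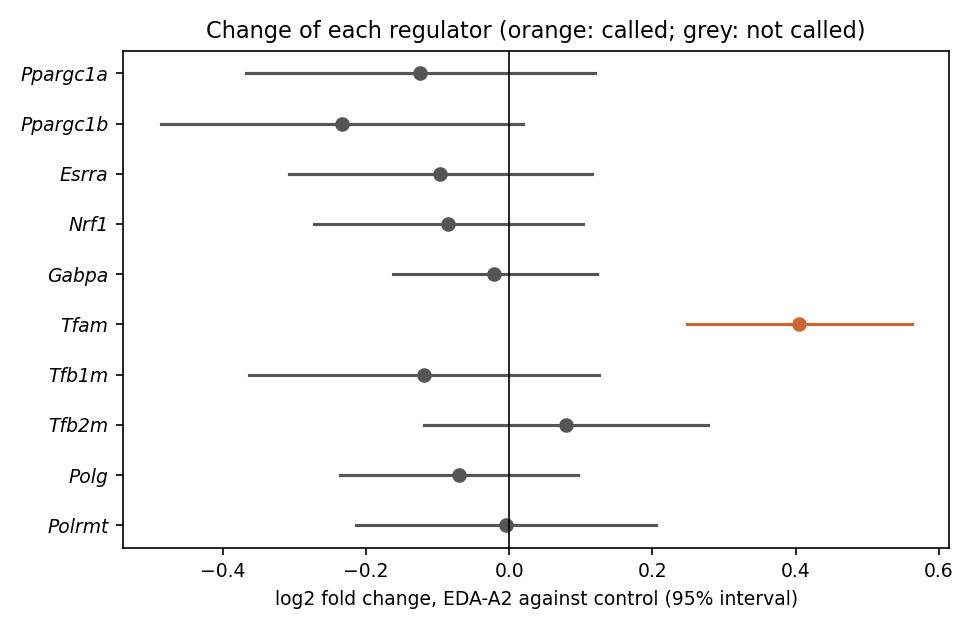
Log2 fold change of each regulator, EDA-A2 against control, with its 95% interval from the edgeR fit on 2 libraries per condition, in orange where called and in grey where not. The interval of Tfam runs from 0.25 to 0.56, and the intervals of the other 9 genes all include 0 and all end below the Tfam estimate.

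The other genes of mitochondrial transcription stayed close to the control level. Tfb2m (ENSMUSG00000026492, chromosome 1 from 179355610 to 179374548), the factor that melts mtDNA promoters together with Tfam and Polrmt, had 776.9 and 684.7 normalized counts in control and 766.5 and 777.4 with EDA-A2. The treated libraries fell within or next to the range of the controls, with a log2 fold change of 0.08 (interval -0.12 to 0.28, adjusted p = 0.775 in edgeR) that was -0.01 without control replicate 2. Its relative Tfb1m (ENSMUSG00000036983, chromosome 17 from 3563847 to 3608190), which methylates the small ribosomal RNA of mitochondria, had 441 and 388.2 in control and 398.9 and 364.6 with EDA-A2. That is a log2 fold change of -0.12 (interval -0.36 to 0.13, adjusted p = 0.713 in edgeR), and 1812 of its exonic bases lie opposite Tiam2.

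Polrmt (ENSMUSG00000020329, chromosome 10 from 79571957 to 79582420), the mitochondrial RNA polymerase itself, had 696.5 and 614.1 normalized counts in control and 677.3 and 629 with EDA-A2. Both treated libraries lay inside the range of the controls. Its log2 fold change of -0.00 (interval -0.21 to 0.21, adjusted p = 0.990 in edgeR) took the opposite sign under total counts (0.05) and under length and GC offsets (0.03). Polg (ENSMUSG00000039176, chromosome 7 from 79095974 to 79116110), the catalytic subunit of the mtDNA polymerase, had 1328 and 1424 in control and 1286 and 1336 with EDA-A2. The conditions overlapped, and the log2 fold change was -0.07 (interval -0.24 to 0.10, adjusted p = 0.761 in edgeR).

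Levels of different genes were compared per length, as TPM (counts divided by transcript length and scaled to a common total per library), with the length of each gene's Ensembl canonical transcript as divisor. Gabpa and Esrra were the most abundant, with means of 57.3 and 56.8 TPM over the 4 libraries, and their ranges overlapped. Nrf1 followed at 39.5 TPM and Tfam at 33.4 TPM. In control myotubes Tfam stood below Nrf1, at 27.2 and 28.5 TPM against 41.5 and 37.6 TPM, and with EDA-A2 the levels met, at 38.7 and 39.3 TPM for Tfam and 39.4 and 39.5 TPM for Nrf1. The order of Tfam and Nrf1 depends on the divisors, 4174 bases for Tfam and 2017 for Nrf1. In normalized counts Tfam lay above Nrf1 in all 4 libraries. After Tfam, Tfb2m came next at 21.8 TPM, apart from its neighbours. Polrmt (14.9 TPM), Polg (14.7 TPM) and Ppargc1a (13.2 TPM) could not be ordered, since the ranges of neighbours overlapped. Tfb1m, at 11.1 TPM, overlapped in range with Ppargc1a, and Ppargc1b was the lowest at 8.43 TPM. The difference between Tfam and each of the other genes in its response was not tested.

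The proteins that work with these regulators were examined as lists. Of 19 partners and upstream regulators of PGC-1, 16 were tested, edgeR and DESeq2 called 0, and 2 had an unadjusted p under 0.05 in edgeR. Their median log2 fold change was 0.08, with 11 positive and 5 negative values. Gabpb1, which encodes the activating subunit that pairs with Gabpa, had 624.4 and 667.6 normalized counts in control and 775.3 and 814.7 with EDA-A2. Both treated libraries lay above the controls, and its log2 fold change of 0.30 (interval 0.11 to 0.49) had an adjusted p of 0.0816 in edgeR. It was called under total counts (adjusted p 0.0479), with a replicate block (0.0374) and with that block and length and GC offsets (0.0277). The ERR family member Esrrg had 386.4 and 464.9 in control and 569.5 and 497.3 with EDA-A2 (log2 fold change 0.33, adjusted p = 0.158 in edgeR), and Yy1, a zinc-finger factor that binds PGC-1α, had a log2 fold change of 0.12 (adjusted p = 0.442 in edgeR). Ppara, Pparg and the muscle coregulator Perm1 were too low to test, at no more than 13 counts in a library.

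Genes for replicating mtDNA and supplying its nucleotides were 17 in number and all tested. Neither edgeR nor DESeq2 called any of them, and 0 had an unadjusted p under 0.05 in edgeR. Their log2 fold changes ran from -0.13 to 0.24 with a median of 0.05. The 3 smallest p-values belonged to Rrm2b, the p53-inducible subunit of ribonucleotide reductase (log2 fold change 0.16, adjusted p = 0.375 in edgeR), Polg2, the accessory subunit of the polymerase (0.24, adjusted p = 0.543), and Atad3a, a membrane ATPase at the nucleoid (-0.13, adjusted p = 0.565). Of 20 genes for transcribing and processing mitochondrial RNA, all tested, edgeR and DESeq2 again called 0, and 2 had an unadjusted p under 0.05 in edgeR. The helicase gene Supv3l1 had a log2 fold change of 0.21 (adjusted p = 0.256 in edgeR), its degradosome partner Pnpt1 0.18 (0.368), and Mterf4, which acts in mitochondrial ribosome assembly, -0.21 (0.309). The median of the list was 0.03.

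**Figure D3:**
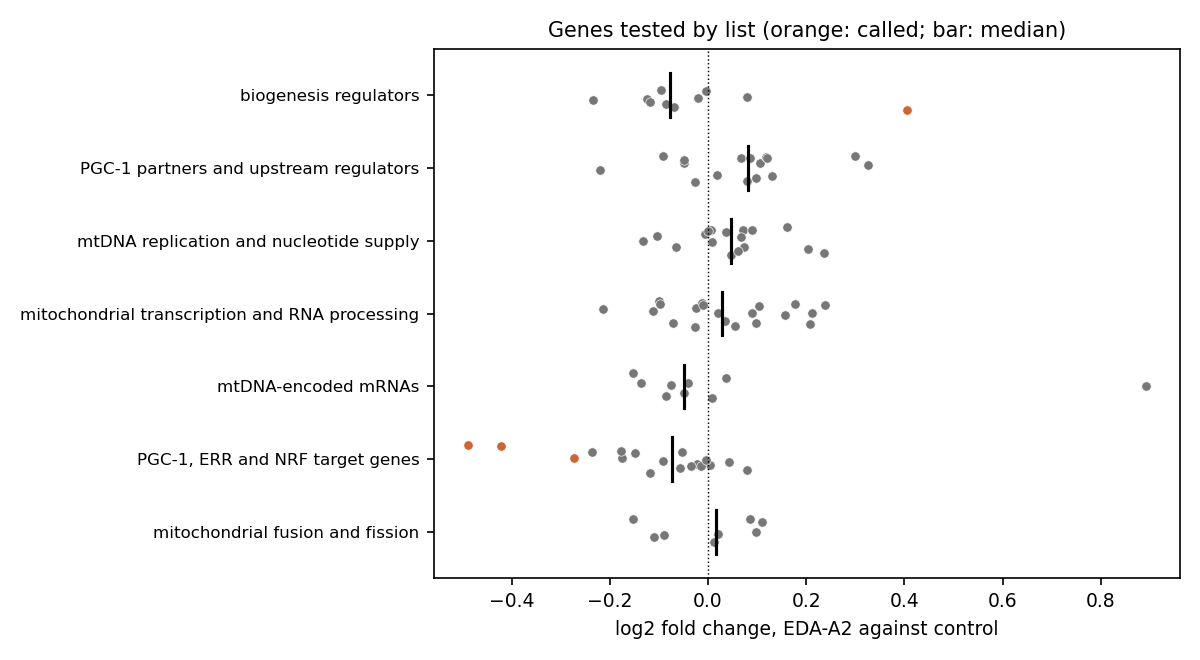
Log2 fold change, EDA-A2 against control, of every gene tested in 7 lists, with called genes in orange, others in grey and a black bar at each list's median. Tfam is the single called point among the biogenesis regulators, and the 3 called points of the target genes lie below 0.

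Polrmt transcribes mtDNA together with Tfam and Tfb2m. The 13 messenger RNAs encoded there took 1.52% and 1.59% of all counts in control and 1.52% and 1.60% with EDA-A2, so the conditions overlapped. Of the 13, 9 were tested, edgeR and DESeq2 called 0, and 1 had an unadjusted p under 0.05 in edgeR. Counts were very uneven between them. The subunit gene mt-Co1 of cytochrome c oxidase held 236533 to 256830 counts in a library, while its neighbours mt-Co2 and mt-Co3 held at most 38 and 20, and mt-Atp6, mt-Atp8, mt-Nd3 and mt-Nd4l at most 16. The authors' counting left out pairs that mapped to more than a single place, and its part in these low counts was not tested. The changes of mt-Nd5 and mt-Nd4 were -0.15 (adjusted p = 0.441) and -0.09 (0.640) on the log2 scale in edgeR. Under length and GC offsets they were -0.26 (0.179) and -0.20 (0.162), and mt-Nd5 was called lower when the replicate block was added (-0.27, adjusted p = 0.0280), while it was -0.02 without EDA-A2 replicate 1. The median of the 9 was -0.05, but 0.006 under total counts, -0.17 under length and GC offsets and -0.16 with the block and offsets.

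The exception was mt-Nd6, the sole messenger RNA on the light strand of mtDNA. It had 642.9 and 598 normalized counts in control and 1770 and 532.7 with EDA-A2. The first treated library stood far above all the others, and the second lay below both controls. Its log2 fold change was 0.89 (interval 0.18 to 1.60, adjusted p = 0.175 in edgeR), but it was -0.22 without EDA-A2 replicate 1 and 1.51 without EDA-A2 replicate 2 (adjusted p = 4.85e-11). With the replicate block it was 0.72 (0.0290), and with the block and length and GC offsets 0.58 (0.00376). The same library also had the largest share of pairs outside annotated genes, 7.40% against 6.68% to 6.84% in the others. Whether this library differs for a technical reason was not tested.

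**Figure D4:**
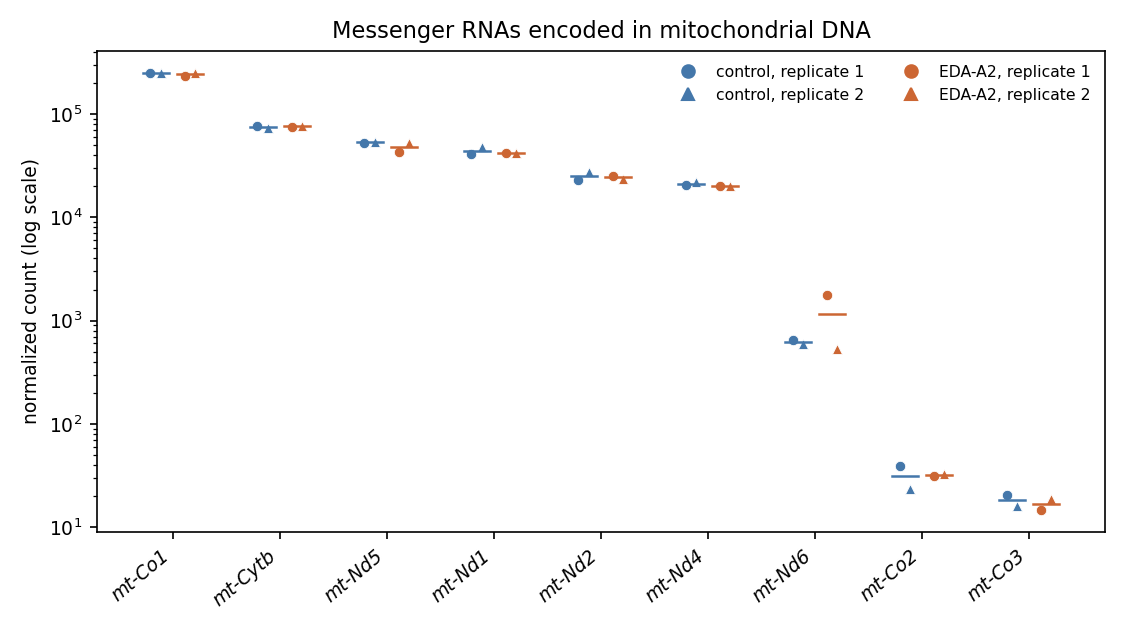
Normalized counts (log scale) of the 9 mtDNA-encoded messenger RNAs that were tested, by library, with control in blue, EDA-A2 in orange, circles for replicate 1, triangles for replicate 2 and a bar at each mean. For mt-Nd6 the first EDA-A2 library, at 1770, stands apart from the other 3, which hold 532.7 to 642.9.

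Genes known as targets of PGC-1, ERRα, NRF1 or GABP in muscle were examined last. All 18 were tested. EdgeR called 0 higher and 3 lower, against 2.45% and 2.13% of all genes tested. At an unadjusted p under 0.05 in edgeR there were 7, against 2372 of all 15173 genes tested. The median log2 fold change was -0.07. Cycs, which encodes cytochrome c and is a classical NRF1 target, fell from 4886 and 4929 normalized counts to 3844 and 4281. Slc2a4, the insulin-responsive glucose transporter GLUT4, fell from 616.1 and 637.3 to 432.3 and 503.2, and Mb, the oxygen-binding protein myoglobin, from 39436 and 26588 to 22743 and 24289. The treated libraries lay below the controls without overlap in 9 of the 18 genes and above them in 0. Over all genes tested these shares were 22.2% and 22.8%. These 3 genes were among the 9, although the control libraries of Mb differed by more than the conditions did. Their log2 fold changes were -0.27 (adjusted p = 0.0412), -0.42 (0.0304) and -0.49 (0.0390) in edgeR.

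These calls stood near the threshold and changed with the setting. DESeq2 called Cycs alone (adjusted p = 0.0377), with Slc2a4 at 0.0621 and Mb at 0.589. Under total counts edgeR called 0 of the 18, with 4 at an unadjusted p under 0.05. With a replicate block it called 4 of the 18, and also 4 with that block and length and GC offsets. In that last fit the edgeR adjusted p was 0.000346 for Cycs, 0.00544 for Slc2a4 and 0.000421 for Mb. Without control replicate 1 the log2 fold change of Mb was -0.18, and without control replicate 2 it was -0.75. Fits without a control library called no gene tested, so the loss of the 3 calls there says nothing about these genes in particular. The log2 fold change of Cycs was -0.277 without control replicate 1 and -0.265 without control replicate 2, and that of Slc2a4 was -0.445 and -0.397. Leaving out EDA-A2 replicate 1 ended the calls of Cycs (-0.196) and Slc2a4 (-0.316). Leaving out EDA-A2 replicate 2 ended that of Cycs (-0.354). The log2 fold changes of the 18 ran from -0.49 to 0.08, with 15 negative and 3 positive values.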

How the data were processed

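Polyadenylated RNA of 4 libraries of mouse primary myotubes, 2 control and 2 treated with EDA-A2, was analysed from the deposited counts. According to the methods and the submitters' processing notes, the authors checked reads with FastQC 0.11.9 and MultiQC 1.12, trimmed them with Trim Galore 0.6.5, aligned them to GRCm39 with STAR 2.7.3a and deposited HTSeq 0.11.1 counts per Ensembl gene, unfiltered and not normalized. The annotation release and strand option are not given in the sources used here. HTSeq's summary lines name no gene and were left out: pairs outside genes (6.68% to 7.40% of a library), ambiguous pairs (0.946% to 0.986%) and pairs not uniquely aligned (4.56% to 4.76%).

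Symbols and canonical transcript lengths came from GENCODE M39, which matched 52610 of 53647 genes. Counts were tested in R 4.3.3 with edgeR 4.0.16 (TMM, filterByExpr with a minimum count of 10 and total of 15, glmQLFit and glmQLFTest, condition as the only term, two-sided), with Benjamini-Hochberg adjustment over all genes tested. Intervals are 95% t intervals on the fit's total degrees of freedom. Alternatives were other scalings and filters, DESeq2 1.42.0, a replicate block, loess offsets for length and GC (span 0.3) and leaving out each library. Steps were tested on simulated data. A count of 0 allows up to 3 counts. Limits of this kind cover counting error only.

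The members and lists were chosen with earlier results of these data known. In every other list the text names at most 3 tested genes ranked first by unadjusted p. It also names all members, genes opposite a member, and further mtDNA-encoded messenger RNAs for their high or low counts. Markers are named for their counts or calls, and Ppara, Pparg and Perm1 as too low to test. Nfkb2 and Eda2r serve as a check of the treatment.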

Additional observations from a re-analysis of the deposited data

How the results depend on the processing

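Of 130 values of the 10 regulators under 13 alternatives, 114 kept their direction and their side of the threshold, 4 (all of Tfam) lost the call and 12 changed sign, none of these being called. The number of regulators called higher was 0 with no filter beyond 1 count in total, and 0 to 1 with a library left out. Signs changed under total counts for Gabpa (0.034) and Polrmt (0.051), and for Polrmt also under upper quartile factors (0.001), length and GC offsets (0.032) and a replicate block with those offsets (0.034). With a library left out, log2 fold changes ranged from -0.32 to 0.11 for Ppargc1a, -0.34 to -0.11 for Ppargc1b, -0.238 to 0.066 for Esrra, -0.17 to 0.006 for Nrf1, -0.048 to 0.006 for Gabpa, -0.008 to 0.18 for Tfb2m, -0.21 to -0.02 for Tfb1m, -0.12 to -0.02 for Polg, -0.092 to 0.091 for Polrmt and -0.22 to 1.51 for mt-Nd6. Such a fit assumes that the lone library varies like those of the other condition. The cause of these changes was not tested.

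Of the PGC-1 partners, 1 was called under total counts, 1 with a replicate block and 1 with the block and the length and GC offsets. Of the mtDNA-encoded messenger RNAs, 1 was called with the block (mt-Nd6), 2 with the block and offsets (mt-Nd6 and mt-Nd5), and 0 to 1 with a library left out. Of the target genes, 0 were called under total counts, 0 with no filter and 1 by DESeq2. The count was 2 under upper quartile factors, 2 under length and GC offsets, 4 with the block and 4 with the block and offsets. Over all genes, 371 were called higher and 323 lower, against 485 and 194 under total counts, 64 and 22 with no filter, 537 and 529 with the block, 602 and 608 with the block and offsets, and 0 to 238 and 0 to 170 with a library left out (at an unadjusted p under 0.05, 2179 and 2449 genes in the fits without control replicate 1 and 2). The replicate numbers name no shared culture, and deviations of same-numbered libraries correlated at 0.0598 over genes, so the libraries were not treated as paired. With the block the log2 fold change of Tfam was 0.41 (adjusted p = 0.000483 in edgeR). With 2 libraries per condition, the intervals of the 9 regulators not called still allow changes of up to 0.28 upwards and -0.49 downwards on the log2 scale.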

Other observations

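Genes of mitochondrial fusion and fission, which shape the network that biogenesis extends, were close to the control level. All 8 were tested, edgeR and DESeq2 called 0, and 1 had an unadjusted p under 0.05 in edgeR. Their median log2 fold change was 0.02, with 5 positive and 3 negative values. The outer-membrane fusion gene Mfn2 had -0.15 (adjusted p = 0.280), the fission gene Fis1 -0.11 (0.534) and Mief1, which recruits the fission GTPase, 0.11 (0.547), all in edgeR.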
